A study of Mus musculus with 34 samples.

Results

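The 34 genes described here are targets, partners and feedback regulators of ATF4 together with the enzymes of serine synthesis and of the folate-dependent one-carbon pathway. They were chosen by name and role from knowledge of the pathway, with earlier results of these data known. Counts of members called are therefore descriptions and not an independent check. All 34 had a row among the 27179 gene identifiers of the count data. They comprised 8 transcription factors, 5 genes of feedback and translation control, 3 enzymes of serine synthesis, 6 of folate one-carbon transfer, 2 of proline synthesis, 5 of asparagine synthesis and transamination, 2 of sulfur amino acid metabolism, 1 of phosphoenolpyruvate synthesis and 2 genes of glycine transport and tRNA export.

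ATF4 is a transcription factor whose mRNA is translated better when the initiation factor eIF2 is phosphorylated, which happens when amino acids run short, when unfolded proteins accumulate in the endoplasmic reticulum, when haem is lacking or when mitochondria are disturbed. It binds composite C/EBP-ATF elements with C/EBP partners and turns on genes for amino acid uptake, amino acid synthesis and tRNA charging, together with its own brakes. Serine made from a glycolytic intermediate, or taken up, donates a carbon unit to folate in mitochondria or cytosol, and activated T cells use these units for purine and thymidylate synthesis. ATF4 protein is controlled largely at translation, so the mRNA of Atf4 itself is not a measure of its activity.

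The study measured RNA of murine CD4 T cells of strain C57BL/6. Naive cells were cultured for 3.5 days on plate-bound anti-CD3 and anti-CD28 antibodies, which engage the T cell receptor and its co-receptor, and were then sorted by flow cytometry. This activation and culture were shared by all 6 groups, so none was unstimulated. The labels name the groups only by a code and a number, Tfh2_1e4 (6 libraries), Tfh2_2e4 (5), Tfh2_4e4 (6), Tfh2_6e4 (6), Tfh5_4e4 (6) and TfhA_4e4 (5). They do not say which agents each code stands for, what the number counts or which gate was sorted, and the animals' age, sex and number are not stated in them.

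The 34 libraries held 4481509 to 9934245 counts each. Each of 9 markers of CD4 T cells had counts in every group, with a summed level of 1485 to 2723 CPM, the count of a gene relative to the TMM-normalised size of its library. The sum was 1485 to 1682 CPM in TfhA_4e4 and 1668 to 2126 in Tfh2_4e4, and 3 of the 9 were called lower in TfhA_4e4 and none higher. Their part in the results was not tested. Summed markers of B cells reached at most 1.42 CPM, of myeloid cells 1.52, of NK cells 2.03 and of erythroid cells 2.87, while CD8 markers ranged from 3.39 to 14.5 and Trdc, the 1 of 3 gamma-delta T cell markers with a row, from 1.36 to 10.3. The highest NK, erythroid and CD8 sums were in TfhA_4e4, and the highest B cell, myeloid and Trdc values in other groups. NK sums were 0.372 to 2.03 in TfhA_4e4, while every other group had a library at 0. The part of these markers in the results was not tested. Mitochondrial rRNA took 14.9% ± 2.20 (SD, n = 5) of the counts of named genes in TfhA_4e4, or 12.7% to 17.5%. The shares were 8.13% to 11.1% for Tfh2_4e4 and 8.44% to 11.2% for Tfh5_4e4, so TfhA_4e4 did not overlap either group. In comparisons with TfhA_4e4 the share moves with the group. A fit with the share as a covariate therefore cannot tell their parts apart. Replicate 3 of Tfh2_4e4 stood apart: it was the highest of its group for 14 of the 31 members tested, so the TfhA_4e4 comparison is also given without it. As it was picked for its high values, leaving it out tends to widen differences for members higher in TfhA_4e4. Whether the replicates are separate animals or cultures is not stated, so the p-values reflect only how these samples vary, which may be technical.

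Of the 34 members 31 had enough counts to be tested. Nupr1, Aldh1l2 and Pycr1, with 29, 102 and 99 counts over all libraries, were not. Cth, Cbs and Slc6a9 each had 3 libraries outside TfhA_4e4 at the level the low-count filter asks for and reached the 5 it needs only with TfhA_4e4 libraries counted, so counts of members are also given for the other 28. Levels are CPM, changes are edgeR log2 fold changes, and a gene is called where its edgeR quasi-likelihood p, adjusted over all 11357 genes tested, was below 0.05. The libraries count 3′ ends of transcripts, so levels are compared between groups and not between genes.

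The comparison of TfhA_4e4 with Tfh2_4e4 asks how the 2 codes differ at the same number. Of the 31 members 20 were higher and 5 lower in TfhA_4e4. The higher ones included all 3 enzymes of serine synthesis, Asns, Mthfd2, Pck2, the factors Atf3, Atf5 and Ddit3 and the feedback genes Trib3 and Chac1, and 15 members were more than 2-fold higher. The lower ones were Mthfd1l, Eif4ebp1, Jdp2, Ppp1r15a and Got1. In all, 80.6% of the members were called against 32.8% of all genes tested (15.5% higher and 17.4% lower), and the median log2 fold change was 1.0 over the members against -0.01 over all genes. Without Cth, Cbs and Slc6a9, 19 were higher and 5 lower, with a median of 0.91. Every TfhA_4e4 library lay above every Tfh2_4e4 library for 15 members and below for 3, which held for 9.53% and 9.86% of all genes. Without Cth, Cbs and Slc6a9 these counts were 14 and 3. In bulk RNA, a change in the share of cells that express a gene and a change in the amount of its RNA per cell cannot be told apart.

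**Figure D1:**
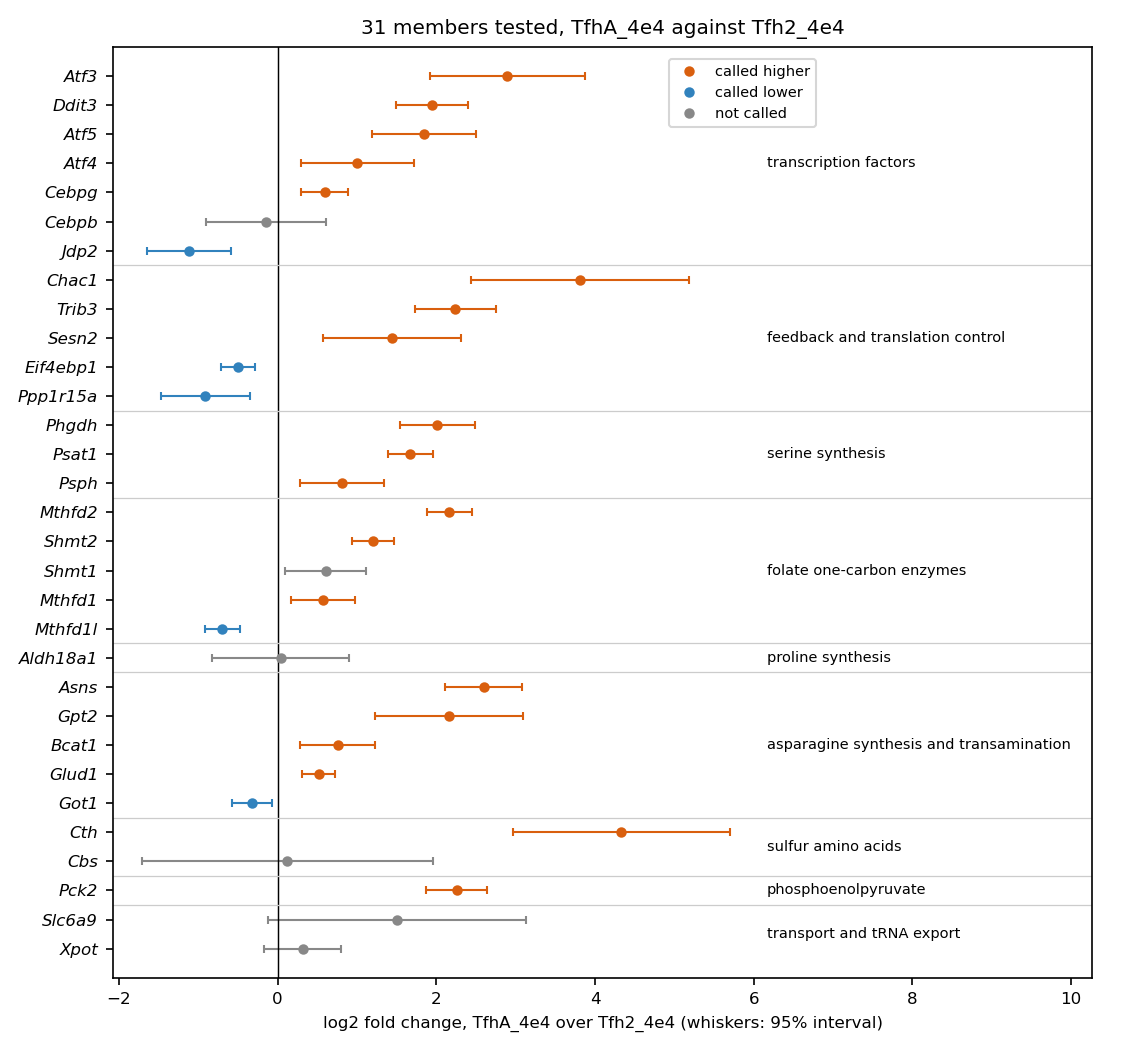
The horizontal axis is the edgeR log2 fold change of TfhA_4e4 over Tfh2_4e4 and each row is 1 of the 31 members tested, with the 95% confidence interval as a bar. Orange points are called higher (20 genes) and lie to the right of 0, blue points are called lower (5 genes) and lie to the left, and grey points are not called.

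ATF4 and its C/EBP partners bind a composite element, which was searched here as TGATGNAA on both strands of the members' promoters. The members were chosen as genes of the ATF4 pathway, so the share that holds the element is a description. RefSeq promoter windows (build GRCm38.p6, 250 bases before to 50 after an annotated start) were found for 31 members, all but Eif4ebp1, Aldh1l2 and Cth. The element was in the window of 9 of the 31 genes (29%), against 4.51% of all 27025 genes in the promoter table and 2.76% of the genes tested here. The 9 were Asns, Atf3, Chac1, Got1, Jdp2, Nupr1, Pck2, Pycr1 and Trib3, with the match in Trib3 lying 14 bases after the start. Got1 and Jdp2 of these were lower in TfhA_4e4. A match is a description of letters, not a binding site. The palindrome TGACGTCA of cAMP-response elements was in the window of 1 member, Ppp1r15a (3.23%), against 2.03% of all genes and 3.8% of the genes tested. Below are the 250 bases before the start of the 5 called members with 1 window and a match before the start, 4 of them higher in TfhA_4e4 and 1, Got1, lower. They are shown 5′ to 3′ on the strand of the gene, with the match in capitals, and the match begins 23 (Asns), 110 (Atf3), 193 (Chac1), 102 (Got1) and 103 (Pck2) bases before the start.
Asns, chr6:7693210-7693459, minus strand: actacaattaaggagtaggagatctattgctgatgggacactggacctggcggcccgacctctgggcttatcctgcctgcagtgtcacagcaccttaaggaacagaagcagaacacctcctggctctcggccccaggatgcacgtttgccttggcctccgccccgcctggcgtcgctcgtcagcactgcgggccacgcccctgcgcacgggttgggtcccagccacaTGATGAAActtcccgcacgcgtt
Atf3, chr1:191183334-191183583, minus strand: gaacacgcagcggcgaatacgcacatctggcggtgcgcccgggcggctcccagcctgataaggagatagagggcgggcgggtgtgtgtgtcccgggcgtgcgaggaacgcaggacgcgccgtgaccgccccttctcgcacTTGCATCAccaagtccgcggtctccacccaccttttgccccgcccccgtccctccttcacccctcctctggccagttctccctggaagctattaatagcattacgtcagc
Chac1, chr2:119350992-119351241, plus strand: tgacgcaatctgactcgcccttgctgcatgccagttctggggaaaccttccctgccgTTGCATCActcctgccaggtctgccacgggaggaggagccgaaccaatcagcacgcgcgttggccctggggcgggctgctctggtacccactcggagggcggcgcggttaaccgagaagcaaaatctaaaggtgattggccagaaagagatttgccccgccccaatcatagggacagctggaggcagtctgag
Got1, chr19:43524606-43524855, minus strand: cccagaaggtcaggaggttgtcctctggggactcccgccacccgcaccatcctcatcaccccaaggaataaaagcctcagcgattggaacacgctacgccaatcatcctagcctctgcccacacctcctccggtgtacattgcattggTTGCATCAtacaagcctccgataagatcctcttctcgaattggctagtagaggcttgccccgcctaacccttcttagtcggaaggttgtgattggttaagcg
Pck2, chr14:55540016-55540265, plus strand: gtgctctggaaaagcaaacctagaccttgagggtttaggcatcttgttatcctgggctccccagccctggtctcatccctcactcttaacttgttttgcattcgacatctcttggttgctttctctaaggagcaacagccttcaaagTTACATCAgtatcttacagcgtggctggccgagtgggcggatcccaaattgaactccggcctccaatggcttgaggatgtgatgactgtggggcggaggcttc
The match reads TGATGAAA in the Asns promoter, TTGCATCA in those of Atf3, Chac1 and Got1, and TTACATCA in that of Pck2, the last 2 being the element on the opposite strand.

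Among the transcription factors, 5 of 7 tested were higher in TfhA_4e4 and 1 was lower. Ddit3 (CHOP, chr10:127290793-127296291 in GRCm38.p6), a C/EBP-family factor that ATF4 induces, stood at 42.1, 30.9, 30.3, 33.2 and 44.6 CPM in the 5 TfhA_4e4 libraries, against a lowest, median and highest of 7.79, 8.90 and 13.2 in Tfh2_4e4. The groups did not overlap, and the log2 fold change was 1.95 (SE 0.224, edgeR adjusted p = 1.4e-09). Atf3, a stress-induced factor of the ATF family, was at 11.3 ± 3.55 CPM (SD, n = 5) against 1.51 ± 0.848 (n = 6), a log2 fold change of 2.90 (SE 0.485, edgeR adjusted p = 4.85e-06). It was 1.99 within replicates 1 to 3 and 4.12 within replicates 4 to 6. Atf5, which like ATF4 is regulated through translation, was at 13.97 ± 4.78 against 3.83 ± 1.97 CPM, with a log2 fold change of 1.84. Atf5 overlaps the locus of the abundant gene Nup62, and Ddit3 those of Mbd6 and Mars1. Since the strand setting of the counting is not given in the sources used here, reads of such neighbours cannot be told apart.

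Atf4 itself (chr15:80255184-80257545) ranged from 5.38 to 15.0 CPM in TfhA_4e4 and from 1.21 to 9.34 in Tfh2_4e4, so the groups overlapped. Its log2 fold change was 1.0 (edgeR adjusted p = 0.0248), and the call was lost without any of 3 single libraries: without Tfh2_4e4 replicate 1 it was 0.82 (edgeR adjusted p = 0.0625), without Tfh2_4e4 replicate 4 0.92 (edgeR adjusted p = 0.0543), and without TfhA_4e4 replicate 6 0.81 (edgeR adjusted p = 0.0941). With the mitochondrial rRNA share as a covariate it was 0.12 (edgeR adjusted p = 0.905). Cebpg, a dimer partner of ATF4, was 0.60 higher on the log2 scale with overlapping groups, and with that covariate it was 0.28 (edgeR adjusted p = 0.39). Jdp2, a repressor of AP-1 sites, was lower, at 5.46 ± 2.93 against 11.5 ± 1.76 CPM and a log2 fold change of -1.12. Cebpb was not called, at -0.15 (edgeR adjusted p = 0.803). Nupr1, a small stress-induced chromatin protein, had 18 counts over TfhA_4e4 and 2 over Tfh2_4e4. The ratio was 14.3 after scaling (95% exact interval 3.43 to 127, counting error only), and 2 of the 5 TfhA_4e4 libraries had no count.

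Of the 5 genes of feedback and translation control, 3 were higher and 2 lower. Trib3, a pseudokinase that ATF4 and CHOP induce and that restrains them, was at 26.1 ± 4.87 CPM in TfhA_4e4 and 5.48 ± 1.90 in Tfh2_4e4, with a log2 fold change of 2.24 (SE 0.252, edgeR adjusted p = 7.81e-10). Chac1 (chr2:119351242-119354326), an enzyme that degrades glutathione, had 297 counts over the 5 TfhA_4e4 libraries and 37 over the 6 of Tfh2_4e4. The ratio was 12.8 (95% exact interval 9.07 to 18.5, counting error only). For Chac1 the edgeR log2 fold change was 3.81, and without replicate 3 of Tfh2_4e4 it was 5.05. Sesn2, which restrains mTORC1 when leucine is low, was at 7.66 ± 2.75 against 2.80 ± 2.17 CPM with overlapping groups. Its log2 fold change of 1.44 was no longer called with the mitochondrial rRNA covariate, at 1.01 (edgeR adjusted p = 0.279).

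The 2 lower genes of this group both act on translation. Eif4ebp1 (chr8:27260327-27275656), which encodes the cap-binding repressor 4E-BP1, stood at 97.0, 93.2, 90.8, 93.4 and 85.5 CPM in TfhA_4e4 and at 119, 129 and 144 (lowest, median, highest) in Tfh2_4e4. All 5 libraries lay below all 6, and the log2 fold change was -0.50 (SE 0.106, edgeR adjusted p = 0.000181). Ppp1r15a (GADD34, which brings a phosphatase to eIF2) was at 6.62 ± 0.864 against 12.4 ± 4.74 CPM, a log2 fold change of -0.91 (edgeR adjusted p = 0.00922). Without Tfh2_4e4 replicate 4 it was -0.68 (edgeR adjusted p = 0.0532), and with the mitochondrial rRNA covariate -0.73 (edgeR adjusted p = 0.219), neither of them called.

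The 3 enzymes of serine synthesis were all higher in TfhA_4e4. Phgdh (chr3:98313171-98339969), which catalyses the entry step from 3-phosphoglycerate, had 18.9, 24.0, 28.0, 32.9 and 16.0 CPM, against 3.87, 5.67 and 8.09 (lowest, median, highest) in Tfh2_4e4, a log2 fold change of 2.01 (SE 0.233, edgeR adjusted p = 1.62e-09). Psat1 (chr19:15905123-15925059), the transaminase of the next step, had 217, 172, 150.2, 141 and 142 CPM against 43.7, 49.3 and 68.5, a log2 fold change of 1.67 (SE 0.139, edgeR adjusted p = 1.3e-13). Neither gene had a TfhA_4e4 library inside the range of Tfh2_4e4. Psph, the phosphatase that releases serine, was 0.81 higher on the log2 scale (edgeR adjusted p = 0.0134) with overlapping groups, and it lost its call without TfhA_4e4 replicate 2 (0.67, edgeR adjusted p = 0.0598), without TfhA_4e4 replicate 5 (0.70, edgeR adjusted p = 0.0541) and with the mitochondrial rRNA covariate (0.89, edgeR adjusted p = 0.0989). Psph overlaps the abundant gene Cct6a.

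Of the 5 folate enzymes tested 3 were higher in TfhA_4e4 and 1 was lower. Mthfd2 (chr6:83305704-83326011), the mitochondrial dehydrogenase and cyclohydrolase, had 271, 309, 283, 267 and 327 CPM in TfhA_4e4, against 43.2, 56.5 and 114 (lowest, median, highest) in Tfh2_4e4, where the 114 belonged to replicate 3. The groups did not overlap. Its log2 fold change was 2.17 (SE 0.143, edgeR adjusted p = 7.18e-17), and 2.40 without replicate 3 of Tfh2_4e4. Shmt2, which transfers the carbon of serine to folate in mitochondria, was at 89.1 ± 4.86 against 38.8 ± 6.26 CPM, a log2 fold change of 1.2 (SE 0.132, edgeR adjusted p = 4.42e-10).

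Mthfd1l (chr10:3972892-4167081), the mitochondrial enzyme that releases formate from the folate that Mthfd2 makes, moved the other way. It had 102, 95.3, 103, 112 and 116 CPM in TfhA_4e4 against 149, 169 and 194 (lowest, median, highest) in Tfh2_4e4, a log2 fold change of -0.70 (SE 0.108, edgeR adjusted p = 1.11e-06), and the groups did not overlap. Mthfd1, the cytosolic enzyme of 3 activities, was 0.57 higher on the log2 scale (edgeR adjusted p = 0.0231) with overlapping groups. That call was lost without any of 4 single libraries (Tfh2_4e4 replicates 5 and 6, TfhA_4e4 replicates 1 and 2), and with the mitochondrial rRNA covariate the value was 1.32. Cytosolic Shmt1 was not called, at 0.61 (edgeR adjusted p = 0.0608). Aldh1l2, which oxidises formyl-folate in mitochondria and was too low to test, had 69 counts over TfhA_4e4 and 4 over Tfh2_4e4. The ratio was 27.5 (95% exact interval 10.3 to 104, counting error only). Its libraries ranged from 0.207 to 3.98 CPM in TfhA_4e4 and from 0 to 0.483 in Tfh2_4e4, so the groups overlapped.

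Of the remaining enzymes, Asns, Pck2, Cth, Gpt2, Glud1 and Bcat1 were higher and Got1 was lower. Asns (chr6:7675165-7693209), which makes asparagine from aspartate and glutamine, had 45.1, 28.8, 40.7, 40.1 and 41.1 CPM in TfhA_4e4, against 3.11, 5.86 and 10.8 (lowest, median, highest) in Tfh2_4e4. Its log2 fold change was 2.60 (SE 0.241, edgeR adjusted p = 3.47e-12). Pck2 (chr14:55540263-55550020), which makes phosphoenolpyruvate in mitochondria, had 73.9, 74.8, 72.4, 61.1 and 69.8 CPM, against 8.71, 13.5 and 25.1. The 25.1 was replicate 3 of Tfh2_4e4, and the log2 fold change was 2.26 (SE 0.190, edgeR adjusted p = 1.83e-13), or 2.48 without it. Both genes had every TfhA_4e4 library above all of Tfh2_4e4.

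Cth (chr3:157894248-157925081), the lyase that frees cysteine from cystathionine, had 592 counts over TfhA_4e4 and 47 over Tfh2_4e4. The ratio was 20.1 (95% exact interval 14.9 to 27.6, counting error only). Gpt2, the mitochondrial alanine transaminase, was at 12.1 ± 0.509 against 2.68 ± 1.16 CPM, a log2 fold change of 2.15. Glud1, which interconverts glutamate and oxoglutarate, was at 229.7 ± 29.3 against 161 ± 19.7 CPM, a log2 fold change of 0.52. Bcat1, the cytosolic branched-chain transaminase, was 0.76 higher on the log2 scale, and the edgeR adjusted p of these 3 was 0.00991 or lower. Got1, the cytosolic aspartate transaminase, was lower at -0.32 (edgeR adjusted p = 0.0431), a call that was lost with RLE size factors (edgeR adjusted p = 0.0697), DESeq2 (adjusted p = 0.0616) or only those 2 groups in the fit (edgeR adjusted p = 0.0957), with the mitochondrial rRNA covariate (-0.09, edgeR adjusted p = 0.777) and without any of 6 single libraries: Tfh2_4e4 replicate 2, 4 or 6 and TfhA_4e4 replicate 3, 5 or 6. Cbs, which makes cystathionine (0.12), Aldh18a1, an enzyme of proline synthesis (0.04), the glycine transporter gene Slc6a9 (1.51) and the tRNA exporter gene Xpot (0.31) were not called. Pycr1, the last enzyme of proline synthesis, was too low to test, at 1.2 ± 0.676 against 0.335 CPM.

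Placed against all 29 libraries of the other 5 groups, the 5 TfhA_4e4 libraries were the 5 highest for 13 members: Atf3, Atf5, Ddit3, Trib3, Chac1, Psat1, Shmt2, Mthfd2, Asns, Gpt2, Glud1, Cth and Pck2. This was true of 12 of the 28 members left without Cth, Cbs and Slc6a9, and of 528 of the genes tested (4.65%), and no member had TfhA_4e4 below all the others (4.26% of genes). The margin was narrow for Glud1, where the lowest TfhA_4e4 library had 190 CPM and the highest other one 184, and wide for Pck2, at 61.1 against 25.1. By group means TfhA_4e4 was highest for 25 of the 34 members, Tfh2_6e4 for 4, Tfh2_1e4 for 3, Tfh2_4e4 for Cebpb and Tfh5_4e4 for Jdp2. With the mitochondrial rRNA share as a covariate 19 of the 31 members were called between TfhA_4e4 and Tfh2_4e4 (24% of all genes), and without replicate 3 of Tfh2_4e4 26 were (33.4% of all genes). Within replicates 1 to 3 alone 14 members were called higher and 3 lower (8.49% and 11.1% of all genes), and within replicates 4 to 6 18 and 5 (10.01% and 11.8%).

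**Figure D2:**
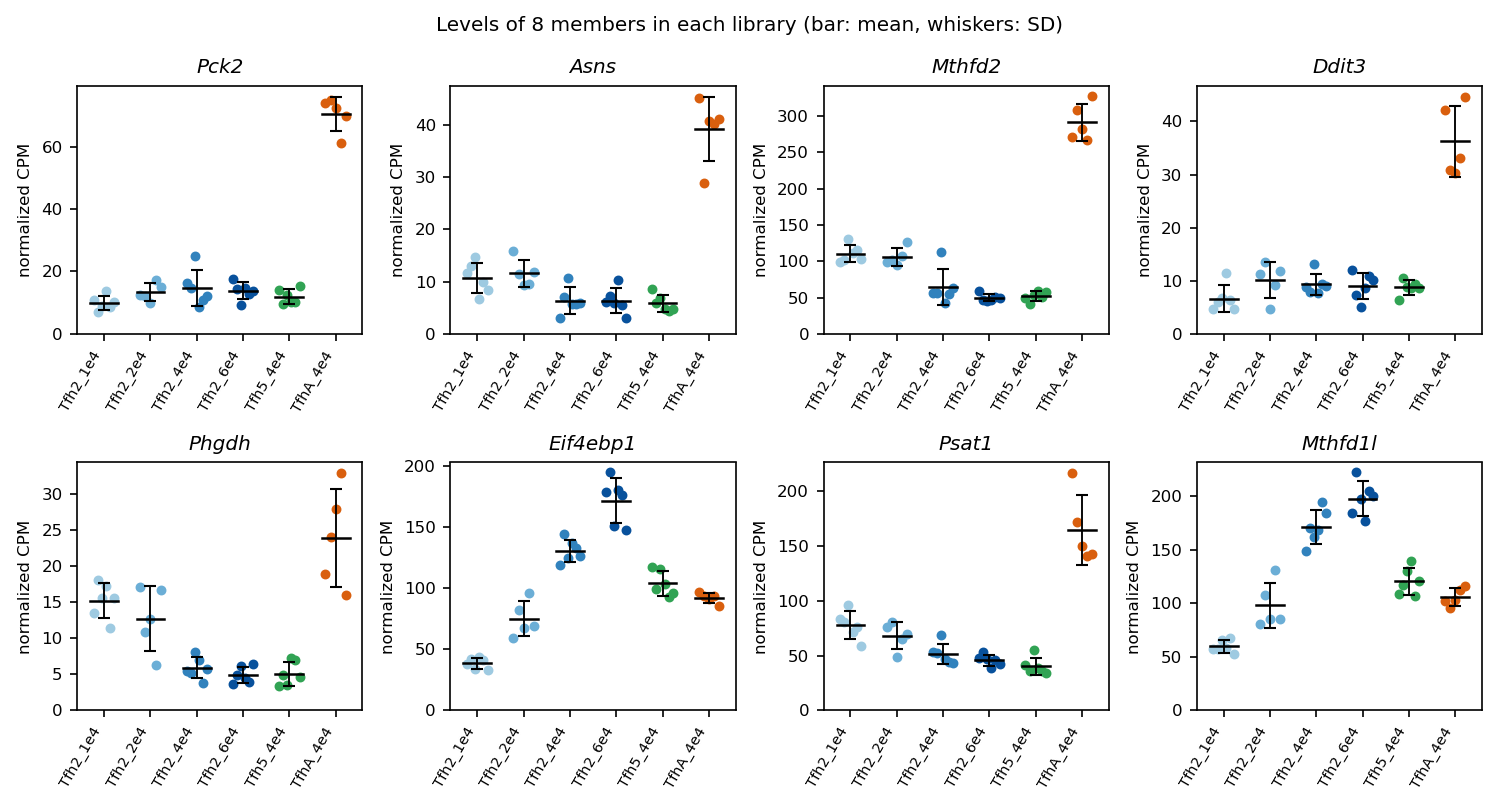
Each panel is 1 of the 8 members with the widest range of group means, each point 1 library and each bar a group mean with whiskers of 1 SD, with normalised CPM on a linear axis from 0 against the 6 groups. Pck2, Asns, Mthfd2, Ddit3, Phgdh and Psat1 are highest in TfhA_4e4, while the group means of Eif4ebp1 and Mthfd1l climb from Tfh2_1e4 to Tfh2_6e4.

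Between Tfh5_4e4 and Tfh2_4e4 few members were called. Of the 31, none was higher and 1, Mthfd1l, was lower, at 107, 119 and 140 CPM (lowest, median, highest) against 149, 169 and 194, a log2 fold change of -0.51 (SE 0.101, edgeR adjusted p = 0.00134). All 6 libraries lay below all 6 of Tfh2_4e4. Of all genes 3.11% were called (1.41% higher and 1.7% lower), and 1 of 31 is near that share. Within replicates 1 to 3 Mthfd1l was -0.43 and not called (edgeR adjusted p = 0.135). The fold changes of 27 of 31 members were below 0, with a median of -0.25, where 51.5% of all genes were below 0, with a median of -0.01. An unadjusted p below 0.05 was found for 6 of the members and for 14.6% of all genes. Eif4ebp1, at 93.0, 101 and 117 CPM (lowest, median, highest), was also below every Tfh2_4e4 library but was not called, at -0.33 (edgeR adjusted p = 0.0595).

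For the members that stood out in TfhA_4e4, the interval of the difference between Tfh5_4e4 and Tfh2_4e4 was narrow for some and wide for others. Mthfd2 was -0.31 (95% interval -0.59 to -0.03, edgeR adjusted p = 0.26), with 41.6, 52.5 and 59.8 CPM (lowest, median, highest) in Tfh5_4e4. Asns was -0.13 (-0.61 to 0.36), with 4.43, 5.36 and 8.55 CPM, and Atf4 -0.04 (-0.74 to 0.65). Ddit3 had 6.31, 8.80 and 10.6 CPM in Tfh5_4e4, Pck2 9.54, 11.4 and 15.2, Phgdh 3.36, 4.79 and 7.29, and Psat1 34.1, 37.2 and 55.4. All of these ranges overlapped those of Tfh2_4e4. Chac1, with 7 counts over Tfh5_4e4 and 37 over Tfh2_4e4, had a fitted change of -2.13 (edgeR adjusted p = 0.202).

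Against Tfh5_4e4, TfhA_4e4 had 21 members higher and 2 lower of 31, where 39.5% of all genes were called (19.1% higher and 20.4% lower). The median was 1.05, and without the 3 members that passed the filter only through TfhA_4e4 20 were higher and 2 lower. This comparison uses the same TfhA_4e4 libraries as the one with Tfh2_4e4, so the 2 are not independent. Side by side, with the value against Tfh2_4e4 first, the log2 fold change was 2.17 and 2.48 for Mthfd2, 2.60 and 2.73 for Asns, 2.26 and 2.56 for Pck2, and 1.67 and 2.03 for Psat1. Chac1 was 3.81 and 5.94, the latter 7.35 without Tfh5_4e4 replicate 6. Cth was 4.33 and 5.58, the latter 6.45 within replicates 1 to 3 and 4.87 within replicates 4 to 6. Counts of Cth gave a ratio of 49.5 to Tfh5_4e4 (95% exact interval 31.4 to 82.7, counting error only). Shmt1 was called here, at 0.88 (edgeR adjusted p = 0.00511). Mthfd1l (-0.19, edgeR adjusted p = 0.16), Eif4ebp1 (-0.18, edgeR adjusted p = 0.189) and Got1 (0.02, edgeR adjusted p = 0.935) were not called against Tfh5_4e4. The 2 lower members were Jdp2 (-1.11) and Ppp1r15a (-0.71, edgeR adjusted p = 0.0389), the latter not called by limma-voom (adjusted p = 0.101), with the replicate block (edgeR adjusted p = 0.0556), or without replicate 2 or 4 of Tfh5_4e4 or 1, 3, 5 or 6 of TfhA_4e4. Atf4 was 1.05 higher (edgeR adjusted p = 0.0159), and without TfhA_4e4 replicate 6 it was 0.87 (edgeR adjusted p = 0.0602). With the mitochondrial rRNA covariate 17 of the 31 members were called (28.1% of all genes), and Shmt1 was 0.73 (edgeR adjusted p = 0.168).

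**Figure D3:**
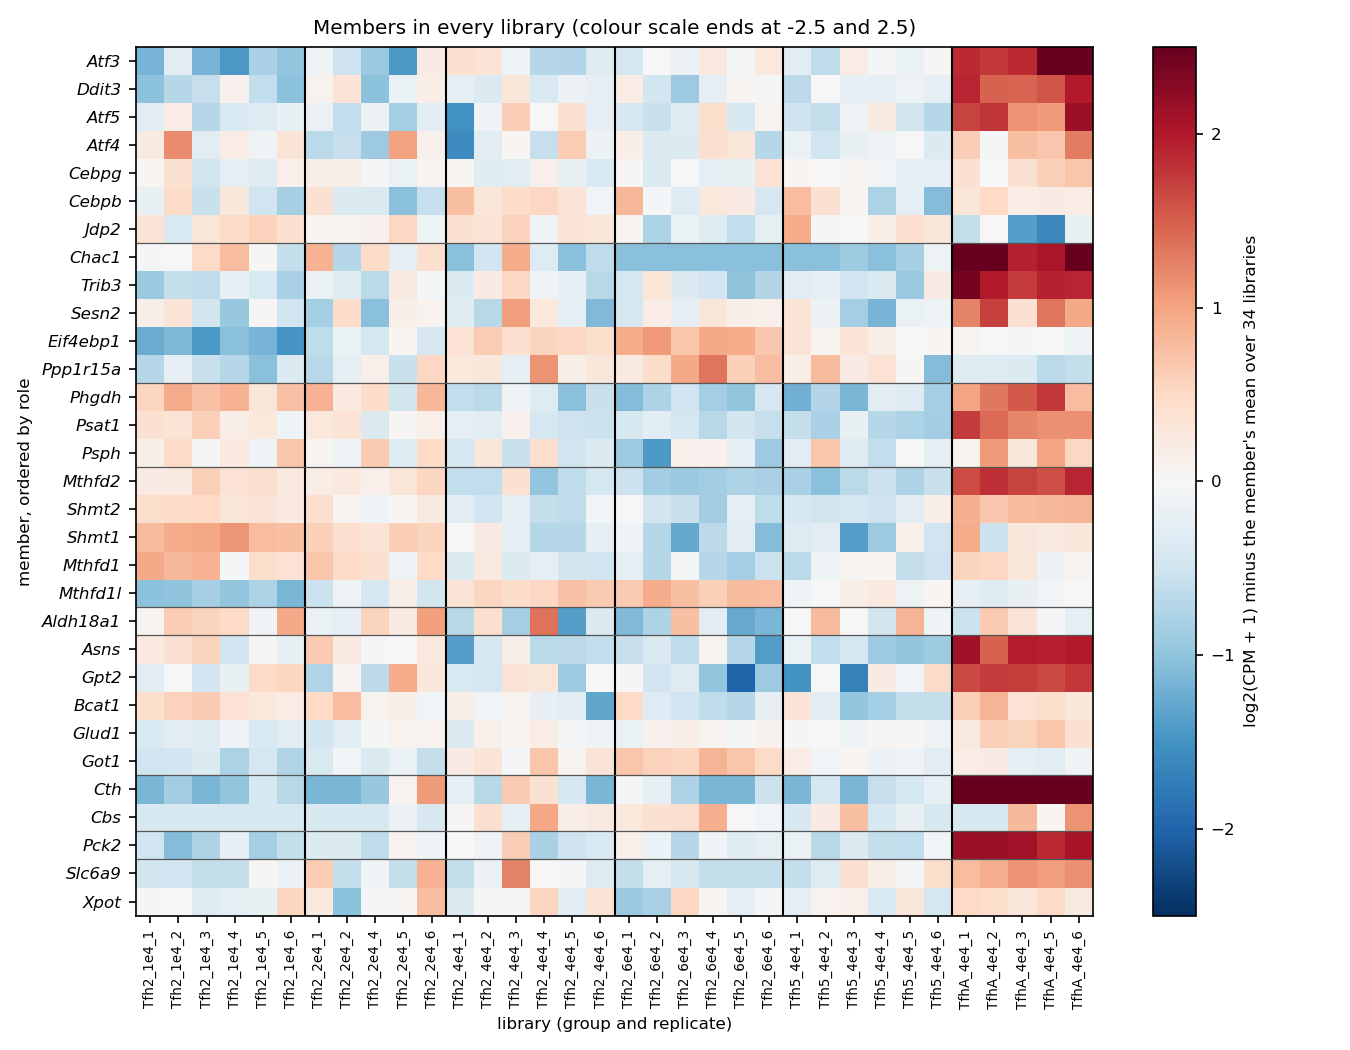
Rows are the 31 members tested, ordered by role, columns the 34 libraries by group, and colour is log2(CPM + 1) of a library minus the member's mean over the 34 libraries, with red above it and blue below. The TfhA_4e4 columns are above the mean for most members, and the rows of Eif4ebp1, Mthfd1l and Got1 are lowest in Tfh2_1e4.

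Within Tfh2, the label number went from 1e4 to 6e4, and members moved in both directions. The enzymes of serine synthesis, both serine hydroxymethyltransferases, Mthfd1 and Mthfd2 fell with the number, while Mthfd1l, Eif4ebp1 and Got1 rose. Of the 31 members 8 rose and 11 fell along log2 of the number (61.3% called against 46.9% of all genes, with 24.1% rising and 22.8% falling), and the median slope was -0.04 per doubling. The 8 that rose were near the share of all genes that rose. Without Cth, Cbs and Slc6a9 7 rose and 11 fell. The labels do not say what the number counts, and the slope treats it as a quantity that can be doubled.

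The gene with the smallest p was Eif4ebp1. Its lowest, median and highest level was 32.7, 39.6 and 44.1 CPM in Tfh2_1e4 and 148, 177 and 195 in Tfh2_6e4, with 59.5, 82.5, 67.6, 96.2 and 68.9 in the 5 libraries of Tfh2_2e4 and the values above in Tfh2_4e4. No 2 neighbouring groups overlapped, and the slope was 0.83 per doubling (SE 0.0383, edgeR adjusted p = 2.23e-22). Mthfd1l had 52.3, 58.1 and 67.2 CPM in Tfh2_1e4, 80.8, 107, 85.6, 131 and 85.0 in Tfh2_2e4 and 176, 199 and 223 in Tfh2_6e4, a slope of 0.69 (SE 0.038, edgeR adjusted p = 8.96e-20). Only its 4e4 and 6e4 groups overlapped. Got1 went from a mean of 38.8 CPM in Tfh2_1e4 to 89.1 in Tfh2_6e4, a slope of 0.47. Ppp1r15a (0.56), Atf3 (0.73), Glud1 (0.12), Pck2 (0.19) and Cbs (2.34) also rose. Pck2 lost its call without Tfh2_1e4 replicate 2, Tfh2_1e4 replicate 5 or Tfh2_6e4 replicate 1, and Cbs had no count in Tfh2_1e4, against which Tfh2_6e4 was at least 13.2-fold higher (floor of 3 counts over the group).

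All 3 enzymes of serine synthesis and 4 of the 5 tested folate enzymes fell. Phgdh went from 11.4, 15.6 and 18.0 CPM (lowest, median, highest) in Tfh2_1e4 and 17.2, 10.9, 12.7, 6.24 and 16.8 in Tfh2_2e4 to 3.71, 4.72 and 6.46 in Tfh2_6e4. Its slope was -0.68 per doubling (SE 0.0807, edgeR adjusted p = 1.61e-09), and the end groups did not overlap. Mthfd2 went from 99.6, 108 and 131 CPM in Tfh2_1e4 and 98.6, 102.5, 94.5, 107 and 126 in Tfh2_2e4 to 45.1, 48.4 and 59.5 in Tfh2_6e4, a slope of -0.46 (SE 0.0486, edgeR adjusted p = 5.87e-11). Its 1e4 and 2e4 groups overlapped, and of its 3 steps only that from 2e4 to 4e4 was called. Psat1 went from 58.6, 78.2 and 96.5 CPM through 76.6, 81.0, 49.2, 65.0 and 69.8 to 38.7, 46.4 and 53.0 CPM, a slope of -0.31.

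Of the other folate enzymes, cytosolic Shmt1 went from 17.2 ± 1.75 CPM (SD, n = 6) in Tfh2_1e4 to 5.43 ± 2.02 (n = 6) in Tfh2_6e4, a slope of -0.66 (SE 0.0858, edgeR adjusted p = 1.59e-08). Mthfd1 had a slope of -0.47 and Shmt2 of -0.35. Asns (-0.36), Bcat1 (-0.31), Psph (-0.29), Aldh18a1 (-0.39) and Chac1 (-2.08) fell as well. Chac1 had no count over the 6 libraries of Tfh2_6e4, at least 19.0-fold lower than in Tfh2_1e4. Asns had 6.65, 10.7 and 14.6 CPM (lowest, median, highest) in Tfh2_1e4, 15.8, 11.4, 9.42, 9.64 and 11.9 in Tfh2_2e4 and 3.04, 6.00 and 10.3 in Tfh2_6e4, so its end groups overlapped. Atf4 was not called, at -0.18 (edgeR adjusted p = 0.227), and neither were Ddit3 (0.15), Trib3, Atf5, Cth, Gpt2 (-0.36), Jdp2 (-0.19), Cebpg (-0.02), Cebpb, Sesn2, Slc6a9 and Xpot.

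By step, 2 members were called from 1e4 to 2e4, both higher, where 5.26% of all genes were called (4.06% higher and 1.2% lower). The 2 of 31 (6.45%) are near that share. Eif4ebp1 rose by 0.95 (edgeR adjusted p = 8.77e-09) and Mthfd1l by 0.71 (edgeR adjusted p = 5.84e-06). From 2e4 to 4e4 11 members were called, where 13% of all genes were (7.59% higher and 5.4% lower). Of these 4 rose, Mthfd1l (0.81), Eif4ebp1 (0.80), Got1 (0.59) and Cbs (3.90, edgeR adjusted p = 0.0376), and 7 fell: Phgdh (-1.11), Asns (-0.85), Shmt1 (-0.82), Mthfd2 (-0.71), Mthfd1 (-0.71), Shmt2 (-0.53) and Psat1 (-0.41, edgeR adjusted p = 0.0429). Without Cth, Cbs and Slc6a9 3 rose and 7 fell. Cbs had 1 count over Tfh2_2e4 and 29 over Tfh2_4e4. Asns lost its call without Tfh2_2e4 replicate 1, Shmt1 without Tfh2_4e4 replicate 5, Psat1 without replicate 1, 2 or 6 of Tfh2_2e4 or 2, 4, 5 or 6 of Tfh2_4e4, and Cbs without replicate 1, 2, 4 or 6 of Tfh2_2e4 or 2 of Tfh2_4e4, while without Tfh2_2e4 replicate 5 Cbs was 5.32. From 4e4 to 6e4, where 1.48% of all genes were called (0.616% higher and 0.863% lower), Eif4ebp1 rose by 0.39 (edgeR adjusted p = 0.03) and Chac1 was lower (edgeR adjusted p = 0.0176). Neither was called without replicate 3 of Tfh2_4e4, Eif4ebp1 also not without replicate 1 or 6 of Tfh2_4e4 or 2, 4 or 5 of Tfh2_6e4, and Chac1 not without replicate 5 of Tfh2_6e4. These steps share the libraries of the groups between them.

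The comparison of TfhA_4e4 with Tfh2_4e4 and the slope share the Tfh2_4e4 libraries, so their values are only set side by side, with the fold change first and the slope per doubling second. Mthfd2 had 2.17 and -0.46, Phgdh 2.01 and -0.68, Psat1 1.67 and -0.31, and Asns 2.60 and -0.36. Mthfd1l had -0.70 and 0.69 and Eif4ebp1 -0.50 and 0.83. Ddit3 had 1.95 and 0.15, its slope not called. Both values were above 0 and called for Pck2 (2.26 and 0.19), Atf3 (2.90 and 0.73) and Glud1 (0.52 and 0.12). Levels in the group means show the scale of both. Mthfd2 was at 110.5 CPM in Tfh2_1e4, 49.8 in Tfh2_6e4 and 291 in TfhA_4e4, while Phgdh was at 15.2 CPM in Tfh2_1e4, 5.92 in Tfh2_4e4 and 24.0 in TfhA_4e4. Eif4ebp1 in TfhA_4e4, at 92.0 CPM, lay between Tfh2_2e4 (75.0) and Tfh5_4e4 (104).

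Among themselves the members were compared within groups, over the 9 whose log2 CPM averaged 4 or more. After removal of group means, the highest correlation over the 34 libraries was that of Mthfd2 with Pck2 (r = 0.66), and next came Eif4ebp1 with Mthfd1l (r = 0.50). Without replicate 3 of Tfh2_4e4 they were 0.47 and 0.50 over 33 libraries. The libraries share their normalisation, and these values are descriptions.

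Other genes that ATF4 is known to act on were read from lists of pathway members. The lists were drawn up with earlier results of these data known, so their counts are descriptions and not an independent check. Aminoacyl-tRNA synthetases charge tRNAs with amino acids, and those of the cytosol fall into a set reported to respond to ATF4 and a remainder. Of 12 tested synthetases reported to respond, 11 were higher in TfhA_4e4 than in Tfh2_4e4 and none lower, with a median log2 fold change of 0.79. In the remainder 1 of 8 was higher, with a median of -0.06. Of all genes 15.5% were higher and 17.4% lower, so the remainder was near the share of higher genes. Cars was at 60.04 ± 9.01 CPM (SD, n = 5) against 19.5 ± 4.09 (n = 6), a log2 fold change of 1.62 (edgeR adjusted p = 1.04e-11). Aars (1.30), Mars1 (0.96) and Yars (0.95) followed, Wars was not called (0.24, edgeR adjusted p = 0.258), and in the remainder Vars was higher (0.42, edgeR adjusted p = 0.0185), a call lost without replicate 4 or 6 of Tfh2_4e4 or 1 of TfhA_4e4. Along the Tfh2 number 1 of the 12 rose (Sars, 0.26) and 8 fell, among them Aars (-0.46). Of the 8 others 2 rose and 2 fell, near the shares of all genes (24.1% rising and 22.8% falling). Between Tfh5_4e4 and Tfh2_4e4 no synthetase of either list was called, where only 3.11% of all genes were.

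**Figure D4:**
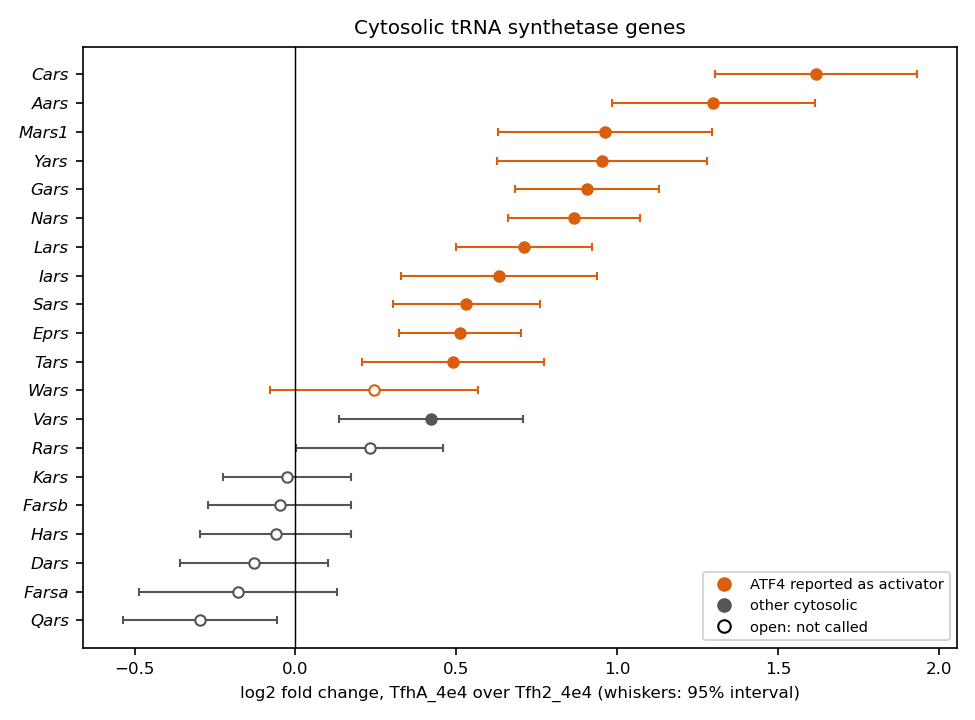
Each row is a cytosolic aminoacyl-tRNA synthetase, the horizontal axis its edgeR log2 fold change of TfhA_4e4 over Tfh2_4e4 with the 95% confidence interval, and colour separates the 12 reported to respond to ATF4 from the 8 others. Filled points are called. The first set lies to the right of 0, with Cars at 1.62 the farthest and Wars not called, and of the second set only Vars is called.

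Amino acid transporters induced by ATF4 had 6 of 8 higher and 1 lower in TfhA_4e4, with a median of 0.85. Of all genes 15.5% were higher and 17.4% lower. Slc1a4, a carrier of serine and other neutral amino acids, was at 12.6 ± 2.23 against 2.87 ± 1.36 CPM, a log2 fold change of 2.12. Slc7a5 and Slc3a2, the chains of the large neutral amino acid carrier, were 1.75 and 0.95 higher, and the arginine carrier gene Slc7a1 0.75. With the mitochondrial rRNA covariate Slc7a5 was 1.15 and not called (edgeR adjusted p = 0.195). Along the Tfh2 number none rose and 5 fell, among them Slc1a4 (-1.14) and Slc7a1 (-0.27), where 24.1% of all genes rose and 22.8% fell.

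Reported ATF4 targets outside amino acid supply went both ways. Of 15 other reported ATF4 targets 4 were higher and 6 lower in TfhA_4e4, with a median of -0.23. Of all genes 15.5% were higher and 17.4% lower in that comparison, and 24.1% rose and 22.8% fell along the Tfh2 number. Stc2, a secreted glycoprotein, was 2.56 higher, while Ddit4, an inhibitor of mTORC1, was lower at -0.83, Ndrg1 at -0.76 and Vldlr at -0.73. Along the Tfh2 number 10 of the 15 rose and 3 fell, with Stc2 at 2.11, Vldlr at 2.08 and Ndrg1 at 1.71 per doubling. In Tfh5_4e4 5 of the 15 were lower than in Tfh2_4e4 and none higher (1.7% and 1.41% of all genes). The next list held 16 genes, chaperones of the endoplasmic reticulum or other members and targets of the XBP1 and ATF6 arms. None was higher in TfhA_4e4. The 2 lower ones, Dnajb11 (-0.38) and Pdia4 (-0.30), were not above the share of all genes (17.4%). Along the Tfh2 number 1 of the 16 rose, Atf6 (0.36), and 11 fell, among them Creld2 (-0.75) and Hspa5 (-0.40). Pdia4 was not called without replicate 1, 3 or 5 of Tfh2_4e4 or 2, 5 or 6 of TfhA_4e4, nor Dnajb11 without replicate 1, 2 or 6 of each of these groups or 5 of TfhA_4e4. Pdia4 was -0.22 without replicate 3 of Tfh2_4e4 (edgeR adjusted p = 0.14). Of 17 genes for eIF2, its kinases, its exchange factor and its phosphatase side, 1 was higher, the kinase gene Eif2ak2 (0.92). The kinase gene Eif2ak1 was the 1 that was lower (-0.82). Both counts were below the shares of all genes. With the mitochondrial rRNA covariate Eif2ak2 was 0.67 and not called (edgeR adjusted p = 0.229).

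Among 22 other genes of the folate and methionine cycles 7 were higher and 5 lower in TfhA_4e4, with a median of 0.31. Of all genes 15.5% were higher and 17.4% lower. Tyms (1.42), which makes thymidylate, was higher, and Aldh1l1 (-2.07), which oxidises formyl-folate in the cytosol, and Sfxn3 (-0.88) were lower. Of 8 purine synthesis genes, the users of formyl-folate among them, 3 were higher and 1 lower: Gart (1.04), Ppat (0.86) and Adsl (0.70) against Prps1 (-1.24). Gart lost its call without replicate 1, 2 or 4 of Tfh2_4e4 or 1 or 3 of TfhA_4e4, and Adsl without 4, 5 or 6 of Tfh2_4e4 or 1 or 2 of TfhA_4e4. Along the number within Tfh2, 9 of the 22 fell, with Tyms at -1.07, and 1 rose, Aldh1l1 at 0.99. Of the 8 purine genes 5 fell and none rose, where 22.8% of all genes fell and 24.1% rose. Of 13 other enzymes of amino acid metabolism 2 were higher in TfhA_4e4 and 3 lower, shares near those of all genes (15.5% and 17.4%). The lower ones included glutamine synthetase, Glul (-1.33), and Gclc (-1.11), the rate-limiting enzyme of glutathione synthesis.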

How the data were processed

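RNA of 34 libraries in 6 title groups was counted per gene. The libraries were made with a Lexogen 3′ kit from 50 ng RNA, per the labels' protocols, and the authors deposited 1 table of raw whole-number counts per library. Tools and build are STAR 2.7.2b, featureCounts 1.6.4 and mm10 per the submitters' processing notes, which give no roles. The strand setting, the treatment of reads that map to several places and the annotation are not given in the sources used here, so overlapping genes and close paralogs are uncertain. Identifiers were matched to symbols and positions in RefSeq GRCm38.p6 (25275 of 27179). The 1904 without a symbol held 48.8% of counts, 48.3% in identifiers 100861531 and 19791. They stayed in library totals, and leaving them out was an alternative.

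Counts were fitted in edgeR 4.0.16 (R 4.3.3) over all groups, with filterByExpr by group, TMM normalisation, two-sided quasi-likelihood F-tests and Benjamini-Hochberg adjustment over 11357 genes (threshold 0.05). The slope is a linear contrast of the Tfh2 group means along the log2 label number. CPM values use TMM-scaled totals, marker sums use raw totals, and the precision of low genes is limited by their counts. A group at 0 counts was set to a floor of 3 counts, and count ratios have exact 95% intervals. Intervals and floors cover counting error only. The fit was tested on simulated data: of genes changed by 1 on the log2 scale, 79% were called in a simulation of TfhA_4e4 against Tfh2_4e4 (11161 genes) and 85% in one of Tfh5_4e4 against Tfh2_4e4 (11100 genes). For TfhA_4e4 against Tfh5_4e4 (11137 genes) it was 66%. Simulated libraries were drawn independently, while the libraries here resembled each other by number and by range, so these percentages may not hold for them.

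Members and lists were chosen with earlier results of these data known. In each comparison the called members with the largest changes are named, up to 12, and the others are given by role. Values per library are given for the 8 members with the widest range of group means and log2 CPM averaging 3 or more, and up to 4 called genes per list are named by size of change. The values of 1 listed gene are not reported here. Alternatives were RLE factors, DESeq2 1.42.0, limma-voom (limma 3.58.1), no low-count filter, only the groups compared, a replicate block, the range of replicate numbers (1 to 3 or 4 to 6) as a factor, the mitochondrial rRNA share as a covariate, leaving out each library, and leaving out Tfh2_4e4 replicate 3 with Tfh2_2e4 replicate 6, which carry genes high in TfhA_4e4. The libraries of that last alternative were picked by their values, so leaving them out is not an independent check. Fits within replicates 1 to 3 and within 4 to 6 were added after seeing the data. No promoter or count data beyond these were used, and no sequence of a protein is given.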

Additional observations from a re-analysis of the deposited data

Results flagged for a closer look

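In 10 of 186 tests of a member in a group, 1 library lay far from the others of its group on the log2 CPM scale, and chance flags about 1 in 20 groups. In Tfh2_4e4, Atf5 was at 0.691 CPM in replicate 1 (others 3.18 to 6.44), Ddit3 at 13.2 in replicate 3 (others 7.79 to 9.34), Mthfd1 at 18.7 in replicate 2 (others 11.0 to 13.3) and Bcat1 at 5.26 in replicate 6 (others 11.8 to 16.4). In TfhA_4e4, replicate 2 was low for Asns, at 28.8 (others 40.1 to 45.1), and high for Cth, at 29.6 (others 17.2 to 19.9). Jdp2 was at 6.67 in Tfh2_1e4 replicate 2 (others 11.3 to 13.8), and Shmt2 at 56.9 in Tfh5_4e4 replicate 6 (others 35.0 to 41.1). Gpt2 was at 0 in Tfh2_6e4 replicate 5 (others 1.03 to 2.90), and Cbs at 0.189 in Tfh2_2e4 replicate 5, where the other libraries had no count.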

How the results depend on the processing

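No member that was called changed direction under any alternative run. The count of members called was within 1.5 times its main value in every alternative for TfhA_4e4 against Tfh2_4e4 (25; 22 to 26 leaving out 1 library) and against Tfh5_4e4 (23; 21 to 23), and for the slope (19; 18 to 20). For Tfh5_4e4 against Tfh2_4e4 the 1 member called became 2 with RLE factors, DESeq2, limma-voom or the rRNA covariate, 3 with the range factor, 0 within replicates 1 to 3, and 1 to 2 leaving out 1 library. From 2e4 to 4e4, 11 members became 5 within replicates 1 to 3. From 4e4 to 6e4, 2 members became 1 with limma-voom, 0 with only those groups, without Tfh2_4e4 replicate 3 and Tfh2_2e4 replicate 6, or within either range, and 0 to 4 leaving out 1 library. Over all genes, TfhA_4e4 against Tfh2_4e4 had 3729 called and 2300 within replicates 1 to 3, and against Tfh5_4e4 4489 and 2830 within 4 to 6. Tfh5_4e4 against Tfh2_4e4 had 353, 96 within 1 to 3 and 122 within 4 to 6. The step from 1e4 to 2e4 had 597, 141 within 1 to 3 and 359 within 4 to 6, and the step to 4e4 1475 and 457 within 1 to 3. The step to 6e4 had 168, 278 with DESeq2, 74 with only those groups, 303 with the range factor, 90 without those 2 libraries, 23 and 34 within the ranges, and 55 to 269 leaving out 1 library. Fits within a range hold fewer libraries, and the cause of the other moves was not tested. The range factor and the block do not show what the numbers stand for.

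Replicate numbers were not taken as pairs in the main fit, because the labels do not say what they stand for. Of 80 same-numbered pairs 50 correlated above 0.1 after removal of group means. The mean was 0.158, against 0.0966 for other numbers of the same range and -0.116 across ranges. The best correlation was with the same number for 17 of 34 libraries. With numbers from 1 to 6 to choose among, chance alone would give fewer. Libraries thus resembled each other by number and by range, which the main fit leaves out. With the replicate block 3 members were called between Tfh5_4e4 and Tfh2_4e4 (584 genes), 25 between TfhA_4e4 and Tfh2_4e4, 22 against Tfh5_4e4, 19 for the slope, 2, 12 and 3 for the 3 steps, and 381 genes for the last step. Low counts limit Cbs, Chac1, Slc6a9 and the 3 untested members.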
